A study of Mus with 9 samples.

Results

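The metalloproteases that cut extracellular matrix and cell-surface proteins, together with their tissue inhibitors, were followed as 85 genes of a mouse heart RNA sequencing study whose count table lists 55421 genes. Members were taken by gene symbol: every Mmp gene with a number, every symbol that begins with Adam, and Timp1 to Timp4. They comprise 4 TIMPs, 23 matrix metalloproteases (MMPs), 34 ADAMs (Adamdec1 included), 19 ADAMTS proteases and 5 ADAMTS-like (ADAMTSL) genes. Of these, 59 carried enough reads to be tested: 4 TIMPs, 17 MMPs, 16 ADAMs, 17 ADAMTS genes and 5 ADAMTSL genes.

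MMPs are zinc-dependent proteases, secreted or held at the cell membrane, that are made as inactive precursors and degrade collagens, elastin and other matrix proteins. ADAMs are membrane-anchored relatives, of which several shed the outer part of surface proteins, whereas ADAMTS enzymes are secreted and cut proteoglycans or process procollagens, and ADAMTSL proteins resemble them without a catalytic domain. TIMPs bind the active site of these enzymes. In the infarcted heart the families are known for the removal of dead tissue and the building of the scar. Messenger RNA was counted here, so neither activation of the precursors nor protein was measured.

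All animals were male wild-type C57BL/6J mice, purchased at 8 to 10 weeks of age. MI_ART mice had the left anterior descending coronary artery tied permanently and received artesunate, an artemisinin-type antimalarial drug, dissolved in DMSO and injected intraperitoneally. MI mice had the same ligation with vehicle, and Sham mice had the operation without ligation, also with vehicle. The labels disagree on the drug schedule, giving 25 mg/kg daily for 7 days from surgery in one place and 10 mg/kg every other day, from 2 days before surgery to day 7, in another. They do not state the day of harvest, and they name rats as well as mice. Each group has 3 libraries, numbered MI_ART 1 to 3, MI 2 to 4 and Sham 1 to 3, and per-library values below follow that order. The labels do not state whether libraries stem from different mice; p-values therefore reflect only the variation among libraries, which may be technical.

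Total counts were 68046341 to 83685313 per library. Levels are given as CPM, counts scaled to a common library size with TMM factors. CPM is not corrected for gene length, so it compares 1 gene between libraries and not different genes. Mitochondrial genes took 23.0 to 25.5% of counts in MI_ART, 12.6 to 20.6% in MI and 37.7 to 43.1% in Sham. The tissue is labelled as atrium, yet MI_ART 3 held 1.96 CPM of Myl7, a myosin light chain of atrial muscle, whereas the other 8 libraries held 167.5 to 989.5 CPM. Myl2, its ventricular counterpart, was present in all 9, at 455 to 3786 CPM. MI 4 stood apart from its group: 32 of 7306 genes with at least 10 CPM in every other library were more than 10-fold below the lowest of those in MI 4, against 0 to 7 genes when each other library was taken in turn. Results that rest on either library are therefore also given without it.

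Infarction went with higher RNA of many matrix-degrading enzymes and of 1 inhibitor. In MI against Sham, 25 of the 59 tested members were higher and 3 were lower at an adjusted p under 0.05 (edgeR's quasi-likelihood test, Benjamini-Hochberg adjustment over all 19326 tested genes), where the background over all tested genes was 18.8% higher and 14.3% lower. The members called higher were Timp1, 9 of 17 MMPs, 5 of 16 ADAMs, 9 of 17 ADAMTS genes and 1 of 5 ADAMTSL genes. Those called lower were Timp4, Adamts7 and Adamtsl4. The shares of the tested members called were 42.4% higher and 5.08% lower. Called in either direction were 28 of the 59, against 33.1% of all tested genes. An unadjusted p under 0.05 was held by 31 of the 59, or 52.5%, against 43.9%. In 36 of the 59 the MI and Sham libraries did not overlap, against 48.9% of all tested genes. In bulk tissue, fewer cells of a type and less RNA per cell cannot be told apart. The median log2 difference was 0.69 over the tested members and 0.04 over all tested genes. Leaving out 1 library at a time gave 20 to 26 members higher. The count of members lower was 3 in the full fit, 1 without Sham 2, 1 without MI 3, 4 without Sham 3, 3 without MI 4 and 2 without each of the 5 remaining libraries. Without MI 4, 26 of 59 were higher and 3 lower, against a background of 18.2% and 15.5%. With MI 4 and MI_ART 3 both left out, 27 of 60 tested were higher and 2 lower, against a background of 17.1% and 14.4%.

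**Figure D1:**
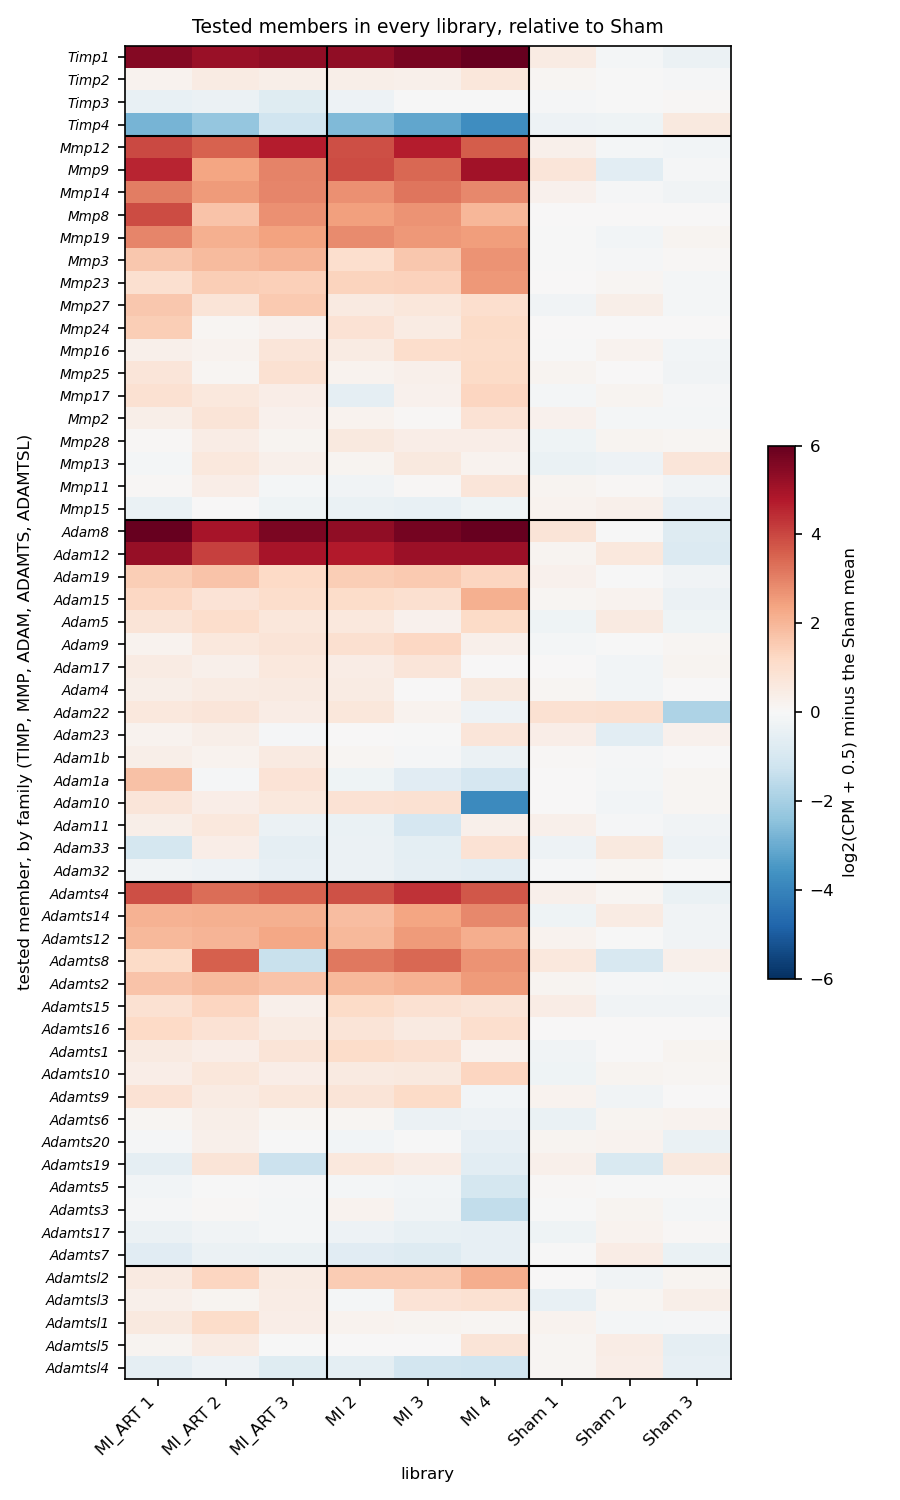
The 59 tested members (rows, ordered within the TIMP, MMP, ADAM, ADAMTS and ADAMTSL blocks) in each of the 9 libraries (columns). Colour is log2(CPM + 0.5) minus the mean of the 3 Sham libraries. Timp1, Mmp12, Adam8 and Adam12 are red in all 6 infarct libraries, Timp4 is blue in all 6, and Adam10 is dark blue in MI 4 alone.

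Of the 4 TIMPs, 1 rose, 1 fell and 2 did not pass in MI against Sham, and likewise in MI_ART against Sham. Timp1 (ENSMUSG00000001131, chrX:20870166-20874737, GRCm38), a secreted inhibitor that is known to be induced by inflammatory signals, measured 127, 101 and 112 CPM in MI_ART, 112, 146 and 333 CPM in MI, and 3.43, 2.07 and 1.67 CPM in Sham. All 6 infarct libraries lay above all 3 Sham libraries, and MI 4 was the highest. Timp1 was 82.6-fold higher in MI than in Sham (log2 6.37, SE 0.50, adjusted p = 6.36e-05) and 47.5-fold higher in MI_ART than in Sham (log2 5.57, SE 0.48, adjusted p = 0.000139). Without MI 4 the log2 difference between MI and Sham was 5.76, with an adjusted p of 5.19e-05. Timp1 lies within the Syn1 gene, whose own counts came to 1.16% of those of Timp1.

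Timp4 (ENSMUSG00000030317, chr6:115244444-115252205), the TIMP best known from heart muscle, went the other way. It measured 3.39, 4.94 and 11.2 CPM in MI_ART, 3.83, 2.67 and 1.54 CPM in MI, and 21.7, 22.0 and 40.2 CPM in Sham. Every infarct library was below every Sham library, and MI_ART 3 was the highest of the 6. Timp4 was 10.4-fold lower in MI than in Sham (log2 -3.38, SE 0.52, adjusted p = 0.00102) and 4.29-fold lower in MI_ART than in Sham (log2 -2.10, SE 0.49, adjusted p = 0.0146). The second of these calls was lost without Sham 3 (adjusted p = 0.0629), without MI_ART 1 (0.0568) or without MI_ART 2 (0.0586), and without MI_ART 3 its log2 difference was -2.74 (0.00659). Timp4 lies within Syn2, which had 26.4% as many counts, and reads of both genes could not be told apart by strand.

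Timp3 (ENSMUSG00000020044, chr10:86300412-86349505), a matrix-bound inhibitor that also acts on ADAM17 and on several ADAMTS enzymes, measured 207, 222 and 169.9 CPM in MI_ART, 229, 275 and 281 CPM in MI, and 270.4, 279 and 298 CPM in Sham. The MI libraries overlapped Sham, whereas the 3 MI_ART libraries were below all others. The difference did not pass for MI against Sham (log2 -0.11, SE 0.16, adjusted p = 0.641) or for MI_ART against Sham (log2 -0.50, SE 0.16, adjusted p = 0.0574), and it passed for MI_ART without MI 4 (0.0201), in DESeq2 (0.0166), in the fit of only the 6 libraries compared (0.0216) and with at least 1 CPM required in 3 libraries (0.0485). Scaled by total counts alone, Timp3 was instead called higher in MI than in Sham (log2 0.74, adjusted p = 0.00493), as were 49.3% of all tested genes. Timp2 (ENSMUSG00000017466, chr11:118301061-118355411), which besides inhibiting MMPs takes part in the activation of the MMP2 precursor by MMP14, measured 146, 177 and 162 CPM in MI_ART, 161, 152 and 200.3 CPM in MI, and 135, 122 and 118 CPM in Sham. All 6 infarct libraries were above the highest Sham library, by a narrow margin. Neither contrast passed in the full fit, with log2 0.45 (SE 0.16, adjusted p = 0.0582) for MI against Sham and log2 0.37 (SE 0.16, adjusted p = 0.144) for MI_ART against Sham. MI against Sham passed in DESeq2 (0.0253) and under scaling by total counts alone (0.000336). MI_ART against Sham passed without MI 4 (0.0309) and in the fit of only the 6 libraries compared (0.0271).

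**Figure D2:**
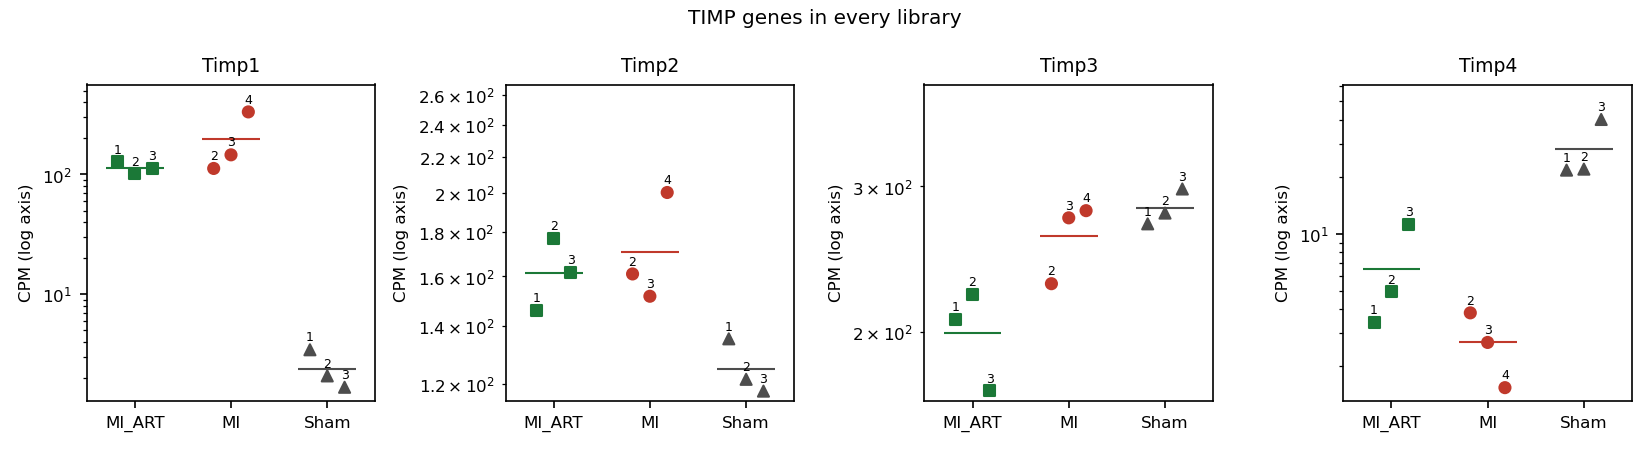
CPM on a log axis of the 4 TIMP genes in the 3 libraries each of MI_ART, MI and Sham (points, labelled with the replicate number; lines are group means). Timp1 is above 100 CPM in every infarct library and below 3.5 CPM in Sham; Timp4 is below 12 CPM in every infarct library and above 21 CPM in Sham; Timp2 and Timp3 span less than 2-fold each.

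Reads of the inhibitors were also set against reads of the MMPs. Summed over the 4 TIMP genes, CPM was 484, 506 and 455 in MI_ART, 506, 575 and 816 in MI, and 431, 424 and 458 in Sham. Summed over the 23 MMP genes it was 322, 317 and 304 in MI_ART, 277, 303 and 425 in MI, and 172, 152 and 133 in Sham. The ratio of the TIMP to the MMP sum, which does not depend on the scaling of libraries, was 1.502, 1.596 and 1.495 in MI_ART, 1.829, 1.896 and 1.92 in MI, and 2.5, 2.788 and 3.449 in Sham. The 3 groups did not overlap in this ratio, with MI_ART lowest and Sham highest. It is a ratio of reads and not of molecules, since lengths were not used, and it is given as a description with no test.

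The make-up of the TIMP reads differed as well. Timp1 held 26.3, 20.0 and 24.6% of them in MI_ART, 22.2, 25.4 and 40.9% in MI, and 0.796, 0.489 and 0.364% in Sham. Timp3 held 42.8, 44.0 and 37.4% in MI_ART, 45.2, 47.8 and 34.4% in MI, and 62.7, 65.7 and 65.1% in Sham. The share of Timp4 was 0.701, 0.976 and 2.47% in MI_ART, 0.756, 0.464 and 0.189% in MI, and 5.04, 5.18 and 8.78% in Sham.

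**Figure D3:**
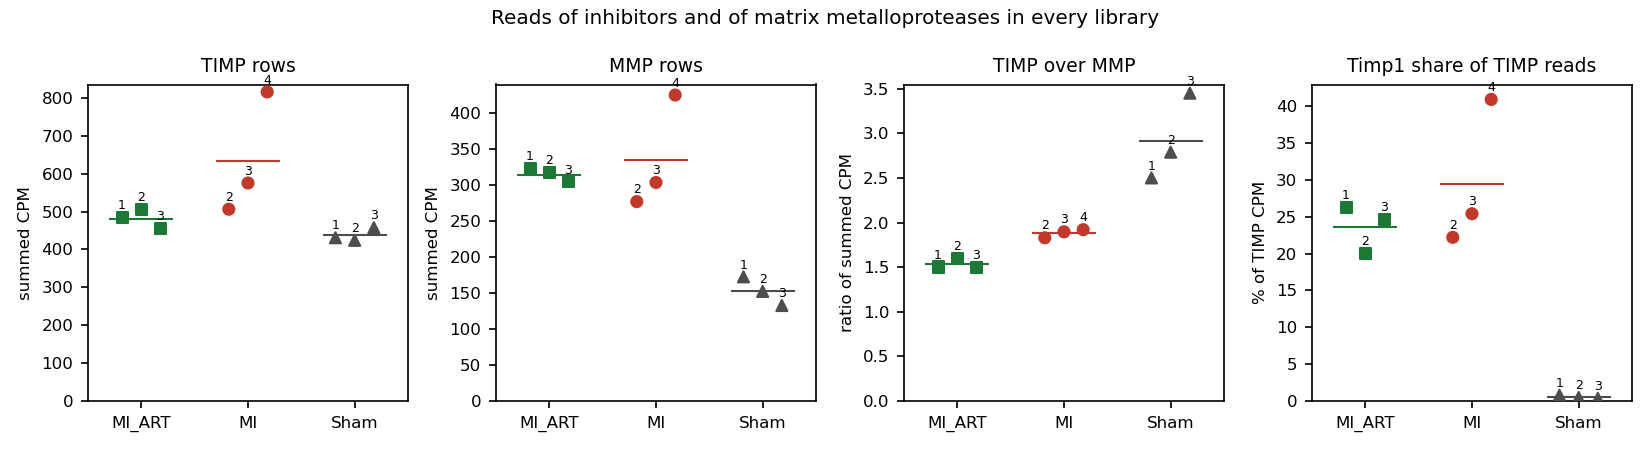
Summed CPM of the 4 TIMP genes and of the 23 MMP genes, their ratio, and the percentage of TIMP reads that came from Timp1, in each library of MI_ART, MI and Sham (points with replicate number; lines are group means; axes start at 0). The ratio is 1.495 to 1.60 in MI_ART, 1.83 to 1.92 in MI and 2.5 to 3.45 in Sham, and the Timp1 share is below 1% in every Sham library.

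Among the secreted MMPs, the enzymes named for white blood cells were nearly absent from Sham. Mmp8 (ENSMUSG00000005800, chr9:7558429-7568486), the neutrophil collagenase, measured 7.09, 1.14 and 2.88 CPM in MI_ART and 2.29, 2.69 and 1.48 CPM in MI and had no count in any Sham library. Against a floor of 3 counts per Sham library it was at least 37.5-fold higher in MI (adjusted p = 0.000837) and at least 64.6-fold higher in MI_ART (adjusted p = 0.00102). Without MI_ART 1, its highest library, the bound for MI_ART is 35.1-fold. These bounds cover counting error only, and Mmp8 passed the filter on low counts through the infarct libraries alone.

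Mmp9 (ENSMUSG00000017737, chr2:164940326-164955850), a gelatinase stored in neutrophil granules and also made by other cells, measured 25.5, 5.16 and 8.12 CPM in MI_ART, 16.0, 11.3 and 35.3 CPM in MI, and 1.33, 0.197 and 0.536 CPM in Sham. The infarct groups were above Sham without overlap and varied widely among themselves, with MI 4 and MI_ART 1 the highest. The gene was 30.4-fold higher in MI than in Sham (log2 4.92, SE 0.85, adjusted p = 0.00189) and 18.8-fold higher in MI_ART than in Sham (log2 4.22, SE 0.82, adjusted p = 0.0063). Without MI 4 the log2 value for MI was 4.31 (adjusted p = 0.00424), without MI_ART 1 that for MI_ART was 3.27 (0.0198), and without Sham 1 they were 5.82 (0.00365) and 5.13 (0.00952).

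Mmp12 (ENSMUSG00000049723, chr9:7344397-7360461), the macrophage elastase, measured 14.4, 10.6 and 24.6 CPM in MI_ART, 13.4, 24.4 and 11.4 CPM in MI, and 0.682, 0.375 and 0.345 CPM in Sham. No Sham library reached 1 CPM and no infarct library was below 10 CPM. Its mean was 35.1-fold higher in MI (log2 5.12, SE 0.48, adjusted p = 0.000115) and 35.3-fold higher in MI_ART (log2 5.13, SE 0.48, adjusted p = 0.000192). Mmp3 (ENSMUSG00000043613, chr9:7445822-7455975), a stromelysin of connective-tissue cells that activates other MMP precursors, measured 19.9, 24.0 and 26.2 CPM in MI_ART, 12.6, 19.5 and 41.6 CPM in MI, and 5.97, 5.71 and 6.47 CPM in Sham. It rose 4.06-fold in MI (log2 2.02, SE 0.38, adjusted p = 0.00288) and 3.86-fold in MI_ART (log2 1.95, SE 0.38, adjusted p = 0.00604) against Sham. Without MI 4, its highest library, the MI value was log2 1.41 (adjusted p = 0.0011).

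Mmp19 (ENSMUSG00000025355, chr10:128790910-128800827), a secreted basement-membrane protease, measured 29.7, 16.8 and 20.3 CPM in MI_ART, 27.9, 23.8 and 22.1 CPM in MI, and 3.39, 3.06 and 3.96 CPM in Sham. All infarct libraries were at least 16 CPM and all Sham libraries under 4 CPM, and the difference from Sham was 7.08-fold in MI (log2 2.82, SE 0.25, adjusted p = 9.47e-05) and 6.41-fold in MI_ART (log2 2.68, SE 0.24, adjusted p = 0.000183). Its locus overlaps Tmem198b, which had 71.7% as many counts. Mmp2 (ENSMUSG00000031740, chr8:92827290-92853421), the constitutively made gelatinase of fibroblasts, was not called. It measured 94.7, 130.4 and 88.7 CPM in MI_ART, 86.9, 79.5 and 136 CPM in MI, and 89.4, 68.3 and 68.9 CPM in Sham. The groups overlapped. No contrast passed in the full fit, with log2 0.42 (SE 0.24, adjusted p = 0.221) for MI against Sham and log2 0.47 (SE 0.24, adjusted p = 0.216) for MI_ART against Sham. Under scaling by total counts alone, MI against Sham passed (log2 1.27, adjusted p = 0.00283).

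The membrane-type MMPs did not move as 1 group. Mmp14 (ENSMUSG00000000957, chr14:54431598-54442456), a membrane-anchored collagenase that activates the MMP2 precursor, measured 65.7, 45.6 and 59.8 CPM in MI_ART, 51.7, 71.9 and 58.2 CPM in MI, and 8.98, 7.09 and 6.36 CPM in Sham. The groups were far apart, at 8.11-fold for MI against Sham (log2 3.02, SE 0.22, adjusted p = 6.09e-05) and 7.63-fold for MI_ART against Sham (log2 2.93, SE 0.22, adjusted p = 0.000117). Mmp15 (ENSMUSG00000031790, chr8:95352296-95374293), a related membrane enzyme, measured 25.1, 33.7 and 27.4 CPM in MI_ART, 24.9, 24.1 and 27.8 CPM in MI, and 38.8, 41.0 and 23.3 CPM in Sham and passed in neither (MI against Sham, log2 -0.42, SE 0.22, adjusted p = 0.175; MI_ART against Sham, log2 -0.26, SE 0.22, adjusted p = 0.476). Without Sham 3, its lowest Sham library, Mmp15 did pass as lower in MI against Sham (log2 -0.64, adjusted p = 0.0339). Its sign turned when libraries were scaled by total counts alone, to 0.40 and 0.46.

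Mmp16, also membrane-anchored, rose in MI with a log2 difference of 1.12 (adjusted p = 0.0271). This call was lost without Sham 1 (0.0787), Sham 3 (0.0868), MI 3 (0.0758), MI 4 (0.0548) or both MI 4 and MI_ART 3 (0.0574). It was also lost with a term for the replicate number in the fit (0.129). Mmp24, another membrane-type enzyme, had no Sham count and was at 0.901, 0.050 and 0.0986 CPM in MI_ART and 0.410, 0.214 and 0.614 CPM in MI, which is at least 7.20-fold higher than the floor of 3 counts per Sham library in MI (adjusted p = 0.017) and at least 6.10-fold in MI_ART (0.0298). The MI_ART bound rests on MI_ART 1, without which it is 1.3-fold. The MI_ART call was lost without Sham 1 (0.0697), Sham 2 (0.0697), Sham 3 (0.0768) or MI_ART 1 (0.0745), and the Mmp24 locus overlaps the far more highly counted BC029722, so its reads are uncertain. Mmp23 (ENSMUSG00000029061, chr4:155650655-155654539), a small MMP without the usual hemopexin domain, measured 19.7, 28.4 and 27.1 CPM in MI_ART, 25.4, 26.6 and 62.7 CPM in MI, and 9.84, 10.8 and 8.90 CPM in Sham. It was 3.88-fold higher in MI (log2 1.96, SE 0.34, adjusted p = 0.00211) and 2.54-fold higher in MI_ART (log2 1.35, SE 0.34, adjusted p = 0.0201). The MI_ART call failed, with an adjusted p of 0.0539 to 0.0795, when Sham 1, 2 or 3 or MI_ART 2 or 3 was left out. Mib2, which overlaps Mmp23 at its edge, had 63% as many counts.

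Mmp27 passed in MI_ART against Sham (log2 1.91, SE 0.42, adjusted p = 0.0118) and not in MI against Sham in the full fit (log2 1.14, SE 0.42, adjusted p = 0.0616). MI against Sham passed in DESeq2 (0.0329), without Sham 2 (0.0414) and without MI_ART 2 (0.0452). The difference between MI_ART and MI for Mmp27 was itself not past the threshold (log2 0.77, SE 0.41, adjusted p = 0.732). The remaining tested MMPs, Mmp11, Mmp13, Mmp17, Mmp25 and Mmp28, passed in neither contrast with Sham. Their log2 differences between MI and Sham were 0.26 for Mmp11, 0.33 for the collagenase Mmp13, 0.64 for Mmp17, 2.31 for Mmp25 and 0.54 for Mmp28.

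Mmp3, Mmp8, Mmp12, Mmp13 and Mmp27 belong to a block of 10 MMP genes on chromosome 9 (chr9:7272514-7699585, GRCm38). Neighbours within the block differed widely. Mmp1a, Mmp1b, Mmp7 and Mmp20 had no count in any of the 9 libraries, and Mmp10 had 8 counts in all. Mmp1b lies between Mmp12 and Mmp3, and Mmp10 between Mmp3 and Mmp8, so genes without counts or nearly so lie between genes called higher.

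**Figure D4:**
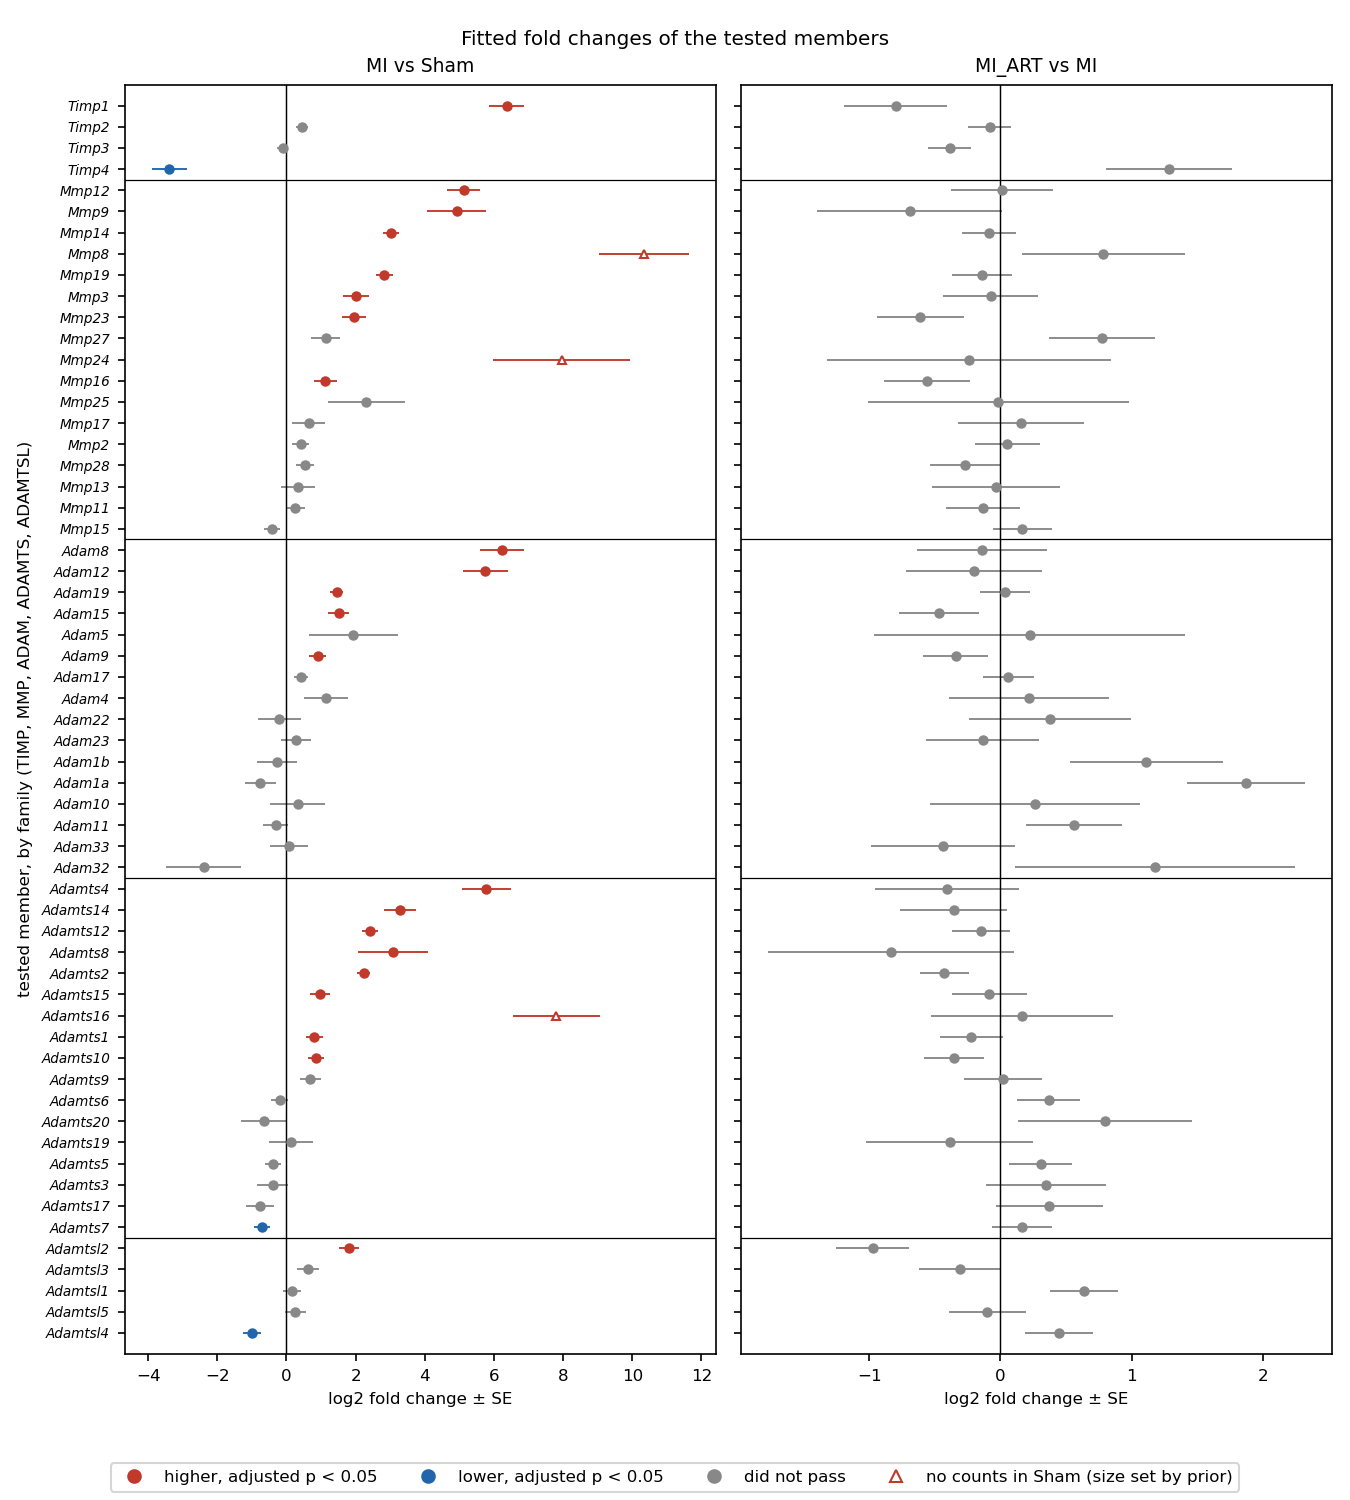
Fitted log2 difference with its standard error for each tested member, for MI against Sham (left) and MI_ART against MI (right), in the TIMP, MMP, ADAM, ADAMTS and ADAMTSL blocks. Red and blue points passed an adjusted p under 0.05 as higher or lower, grey points did not, and open triangles mark genes with no count in Sham, whose fitted size depends on the prior count. In the left panel 25 points are red and 3 blue; in the right panel every point is grey.

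The ADAMs with the largest differences were almost silent in Sham. Adam8 (ENSMUSG00000025473, chr7:139978932-139995207), a leukocyte ADAM, measured 81.0, 37.3 and 63.0 CPM in MI_ART, 49.6, 66.5 and 83.7 CPM in MI, and 1.66, 0.731 and 0.230 CPM in Sham. It rose 76.2-fold in MI (log2 6.25, SE 0.64, adjusted p = 0.000144) and 69.2-fold in MI_ART (log2 6.11, SE 0.63, adjusted p = 0.000267) against Sham. Adam12 (ENSMUSG00000054555, chr7:133883199-134225097), known from fusing muscle cells and from activated fibroblasts, measured 38.5, 17.6 and 31.9 CPM in MI_ART, 28.1, 36.6 and 36.6 CPM in MI, and 0.682, 1.11 and 0.0957 CPM in Sham. Its difference from Sham was 53.7-fold in MI (log2 5.75, SE 0.65, adjusted p = 0.000228) and 46.7-fold in MI_ART (log2 5.54, SE 0.65, adjusted p = 0.000439). Every infarct library exceeded every Sham library by more than 15-fold for Adam12 and by more than 22-fold for Adam8. Adam12, with 37, 56 and 5 counts in Sham, would not have passed the filter on low counts through Sham reads alone. Without Sham 1, the highest Sham library for Adam8, its log2 difference was 7.11 in MI (adjusted p = 0.000487) and 6.98 in MI_ART (0.000746), and without Sham 2, the highest for Adam12, that gene's was 6.43 (0.00104) and 6.22 (0.00194).

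Adam19, Adam15 and Adam9 were present in Sham and rose less. Adam19 (ENSMUSG00000011256, chr11:46054502-46147347), which is needed for heart valve and septum development in mice, measured 51.3, 60.8 and 42.1 CPM in MI_ART, 51.0, 54.7 and 44.8 CPM in MI, and 21.6, 17.9 and 15.5 CPM in Sham. The groups did not overlap, at 2.74-fold for MI (log2 1.45, SE 0.19, adjusted p = 0.000503) and 2.81-fold for MI_ART (log2 1.49, SE 0.19, adjusted p = 0.000749). Adam15 (ENSMUSG00000028041, chr3:89339640-89350028), an adhesion-related ADAM with an integrin-binding domain, measured 83.4, 63.2 and 75.4 CPM in MI_ART, 77.7, 69.8 and 159.6 CPM in MI, and 38.9, 41.2 and 28 CPM in Sham. It was 2.84-fold higher in MI (log2 1.51, SE 0.31, adjusted p = 0.00509) and 2.05-fold higher in MI_ART (log2 1.04, SE 0.31, adjusted p = 0.0411). The MI_ART call was lost, with an adjusted p of 0.0568 to 0.144, when any 1 library of MI_ART or Sham was left out. Adam9 (ENSMUSG00000031555, chr8:24949611-25017040), a widely made sheddase, measured 81.1, 109 and 122 CPM in MI_ART, 138, 169 and 88.2 CPM in MI, and 64.7, 69.7 and 76.8 CPM in Sham. It passed in MI (log2 0.90, SE 0.25, adjusted p = 0.0192), but not without Sham 1 (0.0717), Sham 2 (0.0615) or MI 3 (0.0698). It did not pass in MI_ART in the full fit (log2 0.56, SE 0.25, adjusted p = 0.141), and passed without MI 4 (0.0301) and in the fit of only the 6 libraries compared (0.0244).

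The main sheddases, Adam10 and Adam17, depended on MI 4. Adam10 (ENSMUSG00000054693, chr9:70678944-70780229), which releases Notch and cadherin ectodomains, measured 95.8, 77.3 and 89.6 CPM in MI_ART, 106, 109 and 3.69 CPM in MI, and 59.3, 51.8 and 63.5 CPM in Sham. MI 4 had 342 counts of it, or 0.0712 times the level of the next lowest library, whereas the other 5 infarct libraries were all above Sham. Neither contrast passed in the full fit. MI against Sham had log2 0.32 (SE 0.80, adjusted p = 0.789) and MI_ART against Sham log2 0.59 (SE 0.81, adjusted p = 0.669). Without MI 4 both contrasts passed, with log2 0.89 and an adjusted p of 0.00122 for MI, and log2 0.59 and an adjusted p of 0.00597 for MI_ART. Adam10 was 1 of the 32 genes described above that were nearly missing from MI 4, and the cause was not tested. In the fit with 1 library left out, the sign for MI against Sham turned without MI 2 (-0.042) or MI 3 (-0.085).

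Adam17 (ENSMUSG00000052593, chr12:21323509-21373632), which releases TNF and ligands of the EGF receptor, measured 59.4, 51.2 and 64.1 CPM in MI_ART, 56.4, 68.8 and 42.4 CPM in MI, and 41.9, 37.1 and 45.8 CPM in Sham. The MI and Sham libraries overlapped through MI 4, and the MI_ART libraries did not overlap Sham. No contrast passed in the full fit (MI against Sham, log2 0.42, SE 0.20, adjusted p = 0.128; MI_ART against Sham, log2 0.48, SE 0.20, adjusted p = 0.116), and both passed without MI 4 (0.0151 and 0.024). Iah1, which overlaps Adam17 at its edge, had 31.7% as many counts.

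Other tested ADAMs passed in neither contrast with Sham. Adam22, a catalytically inactive ADAM that binds LGI proteins, was at 9.75, 10.2 and 8.40 CPM in MI_ART, 9.99, 7.03 and 4.78 CPM in MI, and 11.7, 12.1 and 1.30 CPM in Sham. Sham 3 was far below the other Sham libraries, so that the Sham group spans the range of all the rest. Adam33, known from smooth muscle, was at 1.63, 5.29 and 2.47 CPM in MI_ART, 2.94, 2.36 and 7.40 CPM in MI, and 3.02, 6.10 and 3.04 CPM in Sham. Its highest library in each group was MI_ART 2, MI 4 and Sham 2. Of 6 smooth muscle and pericyte markers, 2 were lower and 0 higher in each infarct group against Sham, with sums of 685 to 964 CPM in MI_ART, 574 to 913 CPM in MI and 1080 to 1480 CPM in Sham. The sum was highest in the same libraries of each group as Adam33, and so were Myh11, Cnn1, Tagln and Pdgfrb, whereas Rgs5 and Kcnj8 were lowest in MI 4. Myh11, the smooth-muscle myosin, was at 25.3, 158 and 36.0 CPM in MI_ART, 18.6, 21.1 and 99.4 CPM in MI, and 50.6, 254 and 25.0 CPM in Sham. Whether smooth-muscle content bears on the Adam33 level was not tested.

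ADAMTS genes with calls were spread over the classes of substrate. Of the procollagen N-proteinases, which trim the amino end of fibrillar procollagens, Adamts2 (ENSMUSG00000036545, chr11:50602085-50807573) measured 78.0, 89.3 and 79.2 CPM in MI_ART, 91.6, 99.8 and 140.3 CPM in MI, and 26.3, 22.4 and 22.0 CPM in Sham. It rose 4.69-fold in MI (log2 2.23, SE 0.20, adjusted p = 9.7e-05) and 3.49-fold in MI_ART (log2 1.8, SE 0.19, adjusted p = 0.000304) against Sham, with no overlap. Adamts14 (ENSMUSG00000059901, chr10:61197112-61273419) measured 3.57, 3.61 and 3.58 CPM in MI_ART, 2.94, 4.44 and 6.40 CPM in MI, and 0.295, 0.810 and 0.306 CPM in Sham. Its log2 difference was 3.29 in MI (adjusted p = 0.000637) and 2.93 in MI_ART (0.00191), or 3.93 and 3.57 without Sham 2. Adamts3, the third of the class, was at 2.81, 3.20 and 2.76 CPM in MI_ART, 3.56, 2.59 and 0.754 CPM in MI, and 2.99, 3.42 and 2.72 CPM in Sham and passed in neither contrast (MI against Sham, log2 -0.40, adjusted p = 0.542; MI_ART against Sham, log2 -0.056, adjusted p = 0.95).

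Of the proteoglycan-cutting enzymes, Adamts4 (ENSMUSG00000006403, chr1:171250129-171262267), an aggrecanase that also cuts versican, measured 9.35, 6.33 and 7.34 CPM in MI_ART, 9.06, 13.1 and 8.39 CPM in MI, and 0.313, 0.237 and 0 CPM in Sham. The difference from Sham was 55.5-fold in MI (log2 5.78, SE 0.71, adjusted p = 0.000342) and 41.8-fold in MI_ART (log2 5.37, SE 0.70, adjusted p = 0.000776). Without Sham 1 the log2 values were 6.42 (adjusted p = 0.0016) and 6.01 (0.00325). Every infarct library was above 6 CPM, and Sham 3 had no count. Adamts4 reads in Sham, at 17, 12 and 0 counts, would not alone have passed the filter on low counts.

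Adamts1 (ENSMUSG00000022893, chr16:85793827-85803113), a versican-cutting enzyme that is induced by inflammation, measured 30.8, 28.5 and 36.8 CPM in MI_ART, 45.7, 42.1 and 24.4 CPM in MI, and 18.1, 21.9 and 24.1 CPM in Sham. MI 4 was close to the highest Sham library while the others were clearly above. It passed in MI (log2 0.81, SE 0.24, adjusted p = 0.0285), but not without Sham 1 (0.106), Sham 2 (0.0741), Sham 3 (0.0517), MI 2 (0.0906) or MI 3 (0.0828), nor in the fit of only the 6 libraries compared (0.0503). It did not pass in MI_ART in the full fit (log2 0.58, SE 0.24, adjusted p = 0.122), and passed without MI 4 (0.0152) and in the 6-library fit (0.0174). Its neighbour on chromosome 16, the aggrecanase Adamts5, passed in neither contrast (MI against Sham, log2 -0.39, SE 0.24, adjusted p = 0.242; MI_ART against Sham, log2 -0.083, SE 0.24, adjusted p = 0.85), and its sign turned to 0.45 and 0.66 under scaling by total counts. Adamts9, another versican-cutting enzyme, had a log2 difference of 0.69 in MI (adjusted p = 0.104) and 0.71 in MI_ART (0.129). Both passed without MI 4, at 0.00355 and 0.0118.

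Adamts8 and Adamts15, 20109 bases apart on chromosome 9, behaved differently. Adamts8 (ENSMUSG00000031994, chr9:30942562-30963838) measured 12.7, 71.7 and 1.86 CPM in MI_ART, 52.6, 63.6 and 37.3 CPM in MI, and 8.68, 2.59 and 6.84 CPM in Sham. MI_ART held both the highest and the lowest of the 9 libraries, and the MI libraries were above all Sham libraries. Adamts8 passed in MI (log2 3.08, SE 1.02, adjusted p = 0.0414), but had an adjusted p of 0.0569 to 0.129 without any 1 library of MI or Sham, and was also lost without a filter on low counts (0.066), in a robust fit (0.0601) and in limma-voom (0.0546). It did not pass in MI_ART in the full fit (log2 2.25, SE 0.98, adjusted p = 0.141), and passed without MI_ART 3 (0.0286) and with MI 4 also left out (0.0245). Without MI_ART 2 its log2 difference in MI_ART was 0.31. MI_ART 3 was also the library with the lowest summed atrial markers and the least Myl7, at 174, 803 and 1.96 CPM in MI_ART, 453, 346 and 989.5 CPM in MI, and 822, 168 and 576 CPM in Sham. The part of atrial muscle content in the Adamts8 level was not tested. Adamts15 (ENSMUSG00000033453, chr9:30899155-30922452), a versican-cutting enzyme, measured 17.3, 22.8 and 11.2 CPM in MI_ART, 21.1, 17.8 and 15.6 CPM in MI, and 12.4, 7.84 and 7.68 CPM in Sham. It passed in MI (log2 0.96, SE 0.29, adjusted p = 0.0292) but not without Sham 2 (0.102), Sham 3 (0.105), MI 2 (0.0804) or MI 3 (0.0596). It did not pass in MI_ART in the full fit (log2 0.88, SE 0.29, adjusted p = 0.0597). It passed there without Sham 1 (0.043), MI 4 (0.0448), MI_ART 3 (0.0318) or both MI 4 and MI_ART 3 (0.0159), in DESeq2 (0.021), in the fit of only the 6 libraries compared (0.0493) and with at least 1 CPM required in 3 libraries (0.0493).

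Of the other ADAMTS genes, Adamts12 (ENSMUSG00000047497, chr15:11064773-11349232), which cuts cartilage oligomeric matrix protein, measured 13.3, 14.5 and 17.1 CPM in MI_ART, 13.2, 20.8 and 15.8 CPM in MI, and 3.65, 3.08 and 2.60 CPM in Sham. It was 5.34-fold higher in MI (log2 2.42, SE 0.24, adjusted p = 0.000123) and 4.81-fold higher in MI_ART (log2 2.26, SE 0.23, adjusted p = 0.000266). Adamts7 (ENSMUSG00000032363, chr9:90162904-90200102), which cuts the same protein, went the other way, at 13.4, 17.0 and 16.7 CPM in MI_ART, 13.8, 12.5 and 15.8 CPM in MI, and 21.6, 30.2 and 16.6 CPM in Sham. The MI libraries were below all Sham libraries, and the fall passed narrowly (log2 -0.70, SE 0.23, adjusted p = 0.0415). It did not pass in MI_ART (log2 -0.53, SE 0.23, adjusted p = 0.135). The MI call was lost, at 0.0553 to 0.163, without any 1 library other than Sham 3 or MI 4. It was also lost without a filter on low counts (0.0777) and in the fit of only the 6 libraries compared (0.097). The sign turned to 0.13 under scaling by total counts.

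Adamts10 (ENSMUSG00000024299, chr17:33523646-33553782), which acts on fibrillin microfibrils, measured 39.2, 47.8 and 38.6 CPM in MI_ART, 42.5, 45.3 and 72.9 CPM in MI, and 24.4, 33.5 and 31.6 CPM in Sham. It passed in MI (log2 0.84, SE 0.23, adjusted p = 0.0195), though not without Sham 1 (0.0794) or Sham 3 (0.0505), and did not pass in MI_ART in the full fit (log2 0.49, SE 0.23, adjusted p = 0.173). It passed in MI_ART without MI 4 (0.0329) and in the fit of only the 6 libraries compared (0.0271). Adamts16 had no Sham count and was at 0.642, 0.413 and 0.197 CPM in MI_ART and 0.364, 0.236 and 0.517 CPM in MI. It was at least 6.5-fold above the floor in MI (adjusted p = 0.00265) and at least 7.28-fold in MI_ART (0.00424). Having no Sham count, Adamts16, Mmp8 and Mmp24 passed the filter on low counts only through infarct libraries, where they were high. Adam12 and Adamts4, with few Sham counts, also needed reads of infarct libraries to pass it. The calls of all these genes, counted among the members higher, are therefore not independent of that filter. Without Sham 3 only 5 ADAMTS genes, in place of 9, were called higher in MI, and the share of all genes called higher was 14.1% in place of 18.8%.

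The ADAMTSL genes, whose products bind fibrillin microfibrils and neighbouring matrix, split in direction. Adamtsl2 (ENSMUSG00000036040, chr2:27079336-27108981), known to bind a latent TGF-beta binding protein, measured 18.9, 32.5 and 18.3 CPM in MI_ART, 37.7, 38.1 and 61.0 CPM in MI, and 13.3, 11.1 and 14.6 CPM in Sham. The 3 groups did not overlap. It rose 3.50-fold in MI against Sham (log2 1.81, SE 0.28, adjusted p = 0.00116), and in MI_ART against Sham it did not pass in the full fit (log2 0.83, SE 0.28, adjusted p = 0.0607). It passed there without MI 4 (0.0229), without MI 4 and MI_ART 3 (0.0197), in DESeq2 (0.0225) and in the fit of only the 6 libraries compared (0.0238). Adamtsl4 (ENSMUSG00000015850, chr3:95676201-95687927), which binds fibrillin, measured 20.1, 23.7 and 17.5 CPM in MI_ART, 19.2, 13.1 and 12.5 CPM in MI, and 31.5, 38.2 and 20.6 CPM in Sham. It was 2.01-fold lower in MI than in Sham (log2 -1.01, SE 0.26, adjusted p = 0.015), but not past the threshold without Sham 2 (0.0626), without MI 3 (0.0532) or under scaling by total counts (0.589).

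Adamtsl5, Adamtsl3 and Adamtsl1 were not called. Adamtsl5 measured 45.5, 58.1 and 40.1 CPM in MI_ART, 41.5, 42.4 and 70.1 CPM in MI, and 44.8, 56.0 and 28 CPM in Sham, with overlapping groups. Its log2 difference was 0.26 in MI and 0.16 in MI_ART against Sham, and turned to -0.028 without MI 4 and to -0.071 without Sham 3. Adamtsl3 measured 7.76, 6.93 and 8.56 CPM in MI_ART, 5.59, 11.2 and 12.0 CPM in MI, and 4.37, 6.64 and 7.81 CPM in Sham. No contrast with Sham passed in the full fit (MI against Sham, log2 0.61, SE 0.32, adjusted p = 0.164; MI_ART against Sham, log2 0.30, SE 0.31, adjusted p = 0.556), and MI against Sham passed without MI 2 (0.0333). Adamtsl1 measured 4.37, 6.29 and 3.66 CPM in MI_ART, 3.15, 3.11 and 2.95 CPM in MI, and 3.19, 2.43 and 2.55 CPM in Sham. This gene did not pass in the full fit in MI (log2 0.17, SE 0.26, adjusted p = 0.646) or MI_ART (log2 0.81, SE 0.26, adjusted p = 0.0548) against Sham. In MI_ART it passed without MI 4 (0.0354), without MI 4 and MI_ART 3 (0.028), in DESeq2 (0.0174), in the fit of only the 6 libraries compared (0.0398) and with at least 1 CPM required in 3 libraries (0.0493).

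Summed over family members, ADAM reads came to 531, 455 and 517 CPM in MI_ART, 533, 593 and 489 CPM in MI, and 263, 252 and 249.5 CPM in Sham. ADAMTS reads came to 285, 372 and 277 CPM in MI_ART, 364, 393 and 373 CPM in MI, and 178, 178 and 173 CPM in Sham. Both sums separated the infarct groups from Sham without overlap. The ADAMTSL sum, at 96.7, 127 and 88.1 CPM in MI_ART, 107, 108 and 159 CPM in MI, and 97.2, 114 and 73.6 CPM in Sham, did not.

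Artesunate was compared with vehicle among the infarcted mice, and no metalloprotease or TIMP gene passed. In MI_ART against MI, 0 of 59 tested members were higher and 0 were lower by edgeR, against a background of 0% higher and 0.0103% lower over all tested genes. At an unadjusted p under 0.05 there were 6 members, or 10.2%, against 6.96% of all tested genes. DESeq2 called 1 member higher, Adam1a, where 0.248% of all genes were called higher, and limma-voom called none. Without MI 4, and without MI 4 and MI_ART 3, 0 members were called, against 0.00503% and 0.00508% of genes called lower. The median log2 difference of the tested members was -0.073. In 6 of 59 members the libraries of the 2 groups did not overlap, against 13.9% of all tested genes.

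The 6 members with an unadjusted p under 0.05 were Adam1a, Adamtsl2, Timp4, Adamtsl1, Timp3 and Adamts2. Adam1a (ENSMUSG00000072647, chr5:121518604-121521695), a fertilin gene known from sperm, measured 12.5, 3.24 and 6.26 CPM in MI_ART, 2.69, 1.91 and 1.42 CPM in MI, and 3.39, 3.08 and 3.66 CPM in Sham. MI_ART 1 was the highest of all libraries and MI 4 the lowest. Its log2 difference between MI_ART and MI was 1.87 (SE 0.45, adjusted p = 0.631 in edgeR and 0.0166 in DESeq2), or 1.24 without MI_ART 1. Adamtsl2, with its library values above, was 1.96-fold lower in MI_ART than in MI (log2 -0.97, SE 0.28, adjusted p = 0.656), and each of the 3 MI_ART libraries was below each of the 3 MI libraries.

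Timp4 lay higher in MI_ART than in MI by log2 1.28 (adjusted p = 0.709), with overlap, and by 0.64 without MI_ART 3. Timp3 lay lower in MI_ART than in MI (log2 -0.39, SE 0.16, adjusted p = 0.709) without overlap, and Adamts2 likewise (log2 -0.43, SE 0.19, adjusted p = 0.716). Adamtsl1, with its library values above, lay above MI in all 3 MI_ART libraries (log2 0.64, SE 0.26, adjusted p = 0.709). For Timp1 the difference of log2 -0.80 (adjusted p = 0.73) was -0.19 without MI 4. Values that miss the threshold do not show that the groups were alike: a difference of the size seen for Adamtsl2 did not pass after adjustment with 3 libraries a group.

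For Mmp12, Mmp14, Adam8, Adam12 and Adam19, which rose in both infarct groups against Sham, the difference between MI_ART and MI was smaller than its SE. The log2 difference between MI_ART and MI was 0.010 for Mmp12 (SE 0.39), -0.087 for Mmp14 (SE 0.20), -0.14 for Adam8 (SE 0.49), -0.20 for Adam12 (SE 0.52) and 0.035 for Adam19 (SE 0.19). Mmp9 differed by -0.69 (SE 0.70) and Mmp8 by 0.78 (SE 0.62), both with libraries that overlapped. Other members called higher in both infarct groups lay lower in MI_ART than in MI by more than their SE. These were Timp1, Adamts2, Mmp23 (log2 -0.61, SE 0.33) and Adam15 (log2 -0.47, SE 0.31). Mmp8 alone lay higher by more than its SE, and none of these differences passed.

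MI_ART against Sham asked what still differed from the sham operation under the drug. Of the 59 tested members, 19 were higher and 1, Timp4, was lower, against a background of 12.9% higher and 7.41% lower. They comprised Timp1, 9 of 17 MMPs, 4 of 16 ADAMs and 5 of 17 ADAMTS genes among those higher, and no ADAMTSL gene. The shares of the tested members called were 32.2% higher and 1.69% lower. In either direction 20 of the 59 were called, against 20.3% of all tested genes. An unadjusted p under 0.05 was held by 32 of the 59, or 54.2%, against 33.3%. The libraries of MI_ART and Sham did not overlap in 35 of the 59, against 48.2% of all tested genes. The median log2 difference was 0.71 over the tested members and 0.01 over all tested genes. The count depended on MI 4, which is not in this comparison but enters the shared estimate of the spread. Without MI 4, 29 of 59 members were higher and 2 lower, against a background of 17.3% and 14.6%. Leaving out MI 4 and MI_ART 3 together gave 25 of 60 higher and 1 lower, against 14.4% and 10.5%. No member was called lower without Sham 3, without MI_ART 1 or without MI_ART 2. MI against Sham and MI_ART against Sham share the same 3 Sham libraries, so their calls are not independent.

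The 26 members left untested include many ADAM genes known from the testis. No count was found in any library for 15 of them: Mmp1a, Mmp1b, Mmp7, Mmp20, Adam6a, Adam7, Adam18, Adam20, Adam24, Adam25, Adam26a, Adam26b, Adam29, Adam34 and Adam39. Another 6 had 8 counts or fewer in all 9 libraries, namely Mmp10, Mmp21, Adam30, Adam6b, Adamdec1 and Adamts13, the protease that cuts von Willebrand factor. Adam2 had 13 counts, all of them in MI, and Adam3 had 20, with 4 in MI_ART, 16 in MI and 0 in Sham. Adam21 had 38 counts, Adam28 had 42 and Adamts18 had 43. Because members had to have reads in some group to be tested, the counts of calls above describe the 59 and not all 85. Mmp8, Mmp24 and Adamts16 were tested through reads of infarct libraries alone, and Adam12 and Adamts4 would not have been tested on Sham reads alone.

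Genes that control the proteases were read from lists of partners. For each list the background over all tested genes was, as above, 18.8% higher and 14.3% lower in MI, and 12.9% higher and 7.41% lower in MI_ART, each against Sham. Among 22 activators and other inhibitors of matrix proteases, 20 were tested, of which MI against Sham called 7 higher and 2 lower, and MI_ART against Sham 6 higher and 1 lower. Plau, the urokinase that generates plasmin, was at 27.8, 18.9 and 22.0 CPM in MI_ART, 17.4, 28 and 24.3 CPM in MI, and 4.50, 3.16 and 4.81 CPM in Sham. It rose in both groups (MI against Sham, log2 2.48, SE 0.26, adjusted p = 0.000156; MI_ART against Sham, log2 2.46, SE 0.26, adjusted p = 0.000279). Its receptor Plaur was at 19.8, 10.8 and 19.1 CPM in MI_ART, 20.8, 23.9 and 35.9 CPM in MI, and 1.49, 3.36 and 1.93 CPM in Sham and rose likewise (MI against Sham, log2 3.57, SE 0.38, adjusted p = 0.000182; MI_ART against Sham, log2 2.87, SE 0.37, adjusted p = 0.000759). Tfpi2, a serine protease inhibitor of the matrix, rose with log2 2.13 in MI and 1.84 in MI_ART. Pcsk6, a proprotein convertase, fell to 38.5, 43.7 and 40.8 CPM in MI_ART and 32.3, 23.0 and 18.1 CPM in MI, against 63.3, 69.7 and 69.3 CPM in Sham (MI against Sham, log2 -1.46, SE 0.21, adjusted p = 0.000696; MI_ART against Sham, log2 -0.72, SE 0.20, adjusted p = 0.0342). The MI_ART call for Pcsk6 was lost, at 0.0507 to 0.132, without any 1 library other than MI 2 or MI 4.

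Of 8 tested factors that mature or carry ADAM10 and ADAM17, 4 were higher in MI than in Sham and 2 in MI_ART than in Sham, with none lower. Frmd8, which holds iRhom proteins at the cell surface, was at 22.6, 19.6 and 22.4 CPM in MI_ART, 22.3, 25.1 and 41.9 CPM in MI, and 8.57, 10.2 and 8.96 CPM in Sham. It rose in both (MI against Sham, log2 1.69, SE 0.24, adjusted p = 0.000729; MI_ART against Sham, log2 1.22, SE 0.24, adjusted p = 0.00655). Rhbdf2, the iRhom of immune cells that carries ADAM17, rose with log2 1.38 in MI (adjusted p = 0.00274) and 1.11 in MI_ART (0.0131), the second call being lost without Sham 1 (0.0541), Sham 3 (0.0561) or MI_ART 1 (0.0566). Tspan17, a tetraspanin that binds ADAM10, and Rhbdf1, the other iRhom, passed in MI and not in MI_ART in the full fit, with log2 1.36 (adjusted p = 0.012) and 0.77 (0.0324) in MI. Without Sham 3 the list held 2 genes higher in MI instead of 4, with Tspan17 at 0.053 and Rhbdf1 at 0.0985. Rhbdf1 was also lost without Sham 1 (0.104), Sham 2 (0.0517) or MI_ART 3 (0.0515). Rhbdf1 was lost in MI too in the fit of only the 6 libraries compared (0.0596) and without MI 4 and MI_ART 3 (0.0729). In MI_ART, Tspan17 and Rhbdf1 passed without MI 4 (0.00857 and 0.0144), without MI 4 and MI_ART 3 (0.0195 and 0.0396) and in the 6-library fit (0.0128 and 0.0126), and Tspan17 also in DESeq2 (0.0345).

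Among surface proteins that ADAMs shed, 28 were tested, of which 19 were higher and 3 lower in MI, and 16 higher and 2 lower in MI_ART, each against Sham. Tnfrsf1b, a TNF receptor, was at 51.6, 33.6 and 53.0 CPM in MI_ART, 55.7, 56.4 and 65.3 CPM in MI, and 7.13, 7.54 and 7.99 CPM in Sham. It rose in both (MI against Sham, log2 2.97, SE 0.21, adjusted p = 4.9e-05; MI_ART against Sham, log2 2.61, SE 0.20, adjusted p = 0.000117). Cd44, the hyaluronan receptor, rose by log2 2.52 in MI and 2.26 in MI_ART, and the proteoglycan Sdc1 by 2.16 and 1.55. Egf, a growth factor precursor, fell to 8.39, 9.69 and 8.73 CPM in MI_ART and 4.76, 4.00 and 2.40 CPM in MI, against 16.3, 19.4 and 21.6 CPM in Sham (MI against Sham, log2 -2.36, SE 0.26, adjusted p = 0.000211; MI_ART against Sham, log2 -1.10, SE 0.25, adjusted p = 0.0139). The MI_ART call for Egf failed without Sham 3 (0.0585), MI_ART 1 (0.0655) or MI_ART 3 (0.056).

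Of the matrix partners of ADAMTS and ADAMTSL proteins, 13 were tested, with 6 higher and 2 lower in MI and 6 higher and 0 lower in MI_ART. Fbn1, the main microfibril protein, was at 326, 356 and 315 CPM in MI_ART, 384, 466 and 374 CPM in MI, and 73.5, 66.4 and 68.5 CPM in Sham. It rose in both (MI against Sham, log2 2.55, SE 0.16, adjusted p = 3.16e-05; MI_ART against Sham, log2 2.26, SE 0.16, adjusted p = 8.77e-05). The latent TGF-beta binding protein Ltbp2 rose by log2 3.58 in MI and 2.87 in MI_ART, Fbn2 by 3.06 and 3.20, and Vcan, the versican gene, by 2.09 and 1.60. Of 5 tested procollagen C-proteinases and related genes, 2 were higher in each comparison with Sham. Bmp1, which trims the carboxyl end of procollagens, was at 103, 104 and 97.3 CPM in MI_ART, 102, 107 and 205 CPM in MI, and 31.4, 35.8 and 27.9 CPM in Sham, and rose by log2 2.12 in MI and 1.68 in MI_ART. Its enhancer Pcolce rose by 1.88 and 1.31, the MI_ART call being lost without Sham 2 (0.0714), Sham 3 (0.0809), MI_ART 2 (0.0541) or MI_ART 3 (0.0528). Also in this list, Tll1 and Tll2 are astacin proteases related to Bmp1. Tll1 was at 1.91, 2.51 and 0.888 CPM in MI_ART, 2.40, 1.46 and 0.830 CPM in MI, and 1.31, 0.731 and 1.21 CPM in Sham, with overlap, and did not pass (MI against Sham, log2 0.53, adjusted p = 0.457; MI_ART against Sham, log2 0.71, adjusted p = 0.374). Tll2 was at 0.123, 0.350 and 0 CPM in MI_ART, 0.102, 0.0858 and 0 CPM in MI, and 0.664, 0.632 and 0.977 CPM in Sham. Both infarct groups were below all Sham libraries and neither passed in the full fit (MI against Sham, log2 -3.56, SE 1.34, adjusted p = 0.0672; MI_ART against Sham, log2 -2.25, SE 1.26, adjusted p = 0.247). For Tll2, MI against Sham passed in DESeq2 (0.0175), limma-voom (0.0386), the 6-library fit (0.0306), without MI_ART 3 (0.0335) and without MI 4 and MI_ART 3 (0.0185). Pofut2, which adds fucose to thrombospondin repeats of ADAMTS proteins, passed in MI (log2 0.87, SE 0.23, adjusted p = 0.015) but not without Sham 3 (0.0627) and not in MI_ART in the full fit (log2 0.56, SE 0.23, adjusted p = 0.108). It passed in MI_ART without MI 4 (0.0123), without MI 4 and MI_ART 3 (0.0197) and in the fit of only the 6 libraries compared (0.0156). Its partner enzyme B3glct passed in neither contrast with Sham. In MI_ART against MI no gene of these lists passed by edgeR. DESeq2 called 2 of the surface proteins, where the background was 0.248% higher and 0.207% lower. Egf was higher in MI_ART than in MI (adjusted p = 0.00285 in DESeq2 and 0.535 in edgeR) and Nrg1, the neuregulin gene, was lower (1.3e-08 in DESeq2 and 0.196 in edgeR).

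Markers of cell types, with metalloproteases left out, were read in the same libraries. All 10 macrophage and monocyte markers were higher in MI and in MI_ART than in Sham, with a summed level of 2030 to 3780 CPM in MI_ART, 2960 to 3570 CPM in MI and 375 to 559 CPM in Sham. Of 10 neutrophil markers 6 were tested, of which 6 were higher in MI and 5 in MI_ART. Their sum was 31.0 to 102 CPM in MI_ART, 50.9 to 145 CPM in MI and 3.67 to 49.7 CPM in Sham, the top Sham value being Sham 1, where Ltf alone gave 44.9 CPM. The neutrophil markers Ly6g, Camp and Ngp were at 0 in 7, 8 and 8 of the 9 libraries. Csf3r, the neutrophil growth factor receptor, was at 42.8, 12.0 and 30.5 CPM in MI_ART, 29.3, 24.4 and 52.9 CPM in MI, and 0.848, 0.908 and 1.11 CPM in Sham, and the summed neutrophil markers, Csf3r and Mmp9 were each highest in MI_ART 1 and MI 4 within their groups. Mmp8 was also highest in MI_ART 1 but, at 1.48 CPM, was lowest of its group in MI 4. The part of these cells in the levels of Mmp8, Mmp9, Mmp12 and Adam8 was not tested.

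Of 8 fibroblast markers, 5 were higher and 1 lower in MI, and 4 higher in MI_ART, with sums of 3680 to 4150 CPM in MI_ART, 4190 to 5030 CPM in MI and 1410 to 1640 CPM in Sham. Of 4 ventricular muscle markers, 2 were lower in each infarct group, with sums of 2920 to 4470 CPM in MI_ART, 1650 to 3030 CPM in MI and 7570 to 8440 CPM in Sham. Myl2 was at 946, 978 and 1537 CPM in MI_ART, 846, 816 and 455 CPM in MI, and 2989, 2967 and 3786 CPM in Sham. The summed level of the 4 was lowest in MI 4, highest among infarct libraries in MI_ART 3 and highest overall in Sham 3, as was Timp4. Each of the 4 was lowest in MI 4, but Irx4 was highest among infarct libraries in MI_ART 1, Myl3 and Irx4 were highest overall in Sham 2, and Myh7 was highest overall in MI_ART 3. The part of muscle content in the Timp4 level was not tested. No atrial marker passed, with sums of 1300 to 12400 CPM in MI_ART, 13400 to 25000 CPM in MI and 1740 to 7320 CPM in Sham. Nppa gave most of each sum. It was at 2313, 9757 and 1293 CPM in MI_ART, 11540, 11450 and 20600 CPM in MI, and 4872, 1177 and 3972 CPM in Sham. Myl4 was likewise higher in every MI library than in every Sham library, whereas Myl7 and Sln overlapped between MI and Sham. Skeletal muscle markers summed to 3.21 to 7.66 CPM in MI_ART, 37.6 to 110 CPM in MI and 2.39 to 4.37 CPM in Sham. Of 4 tested, 2 were higher in MI and 1 in MI_ART than in Sham. In MI_ART against MI, 1 of them was lower, where only 2 of all 19326 tested genes were.

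**Figure D5:**
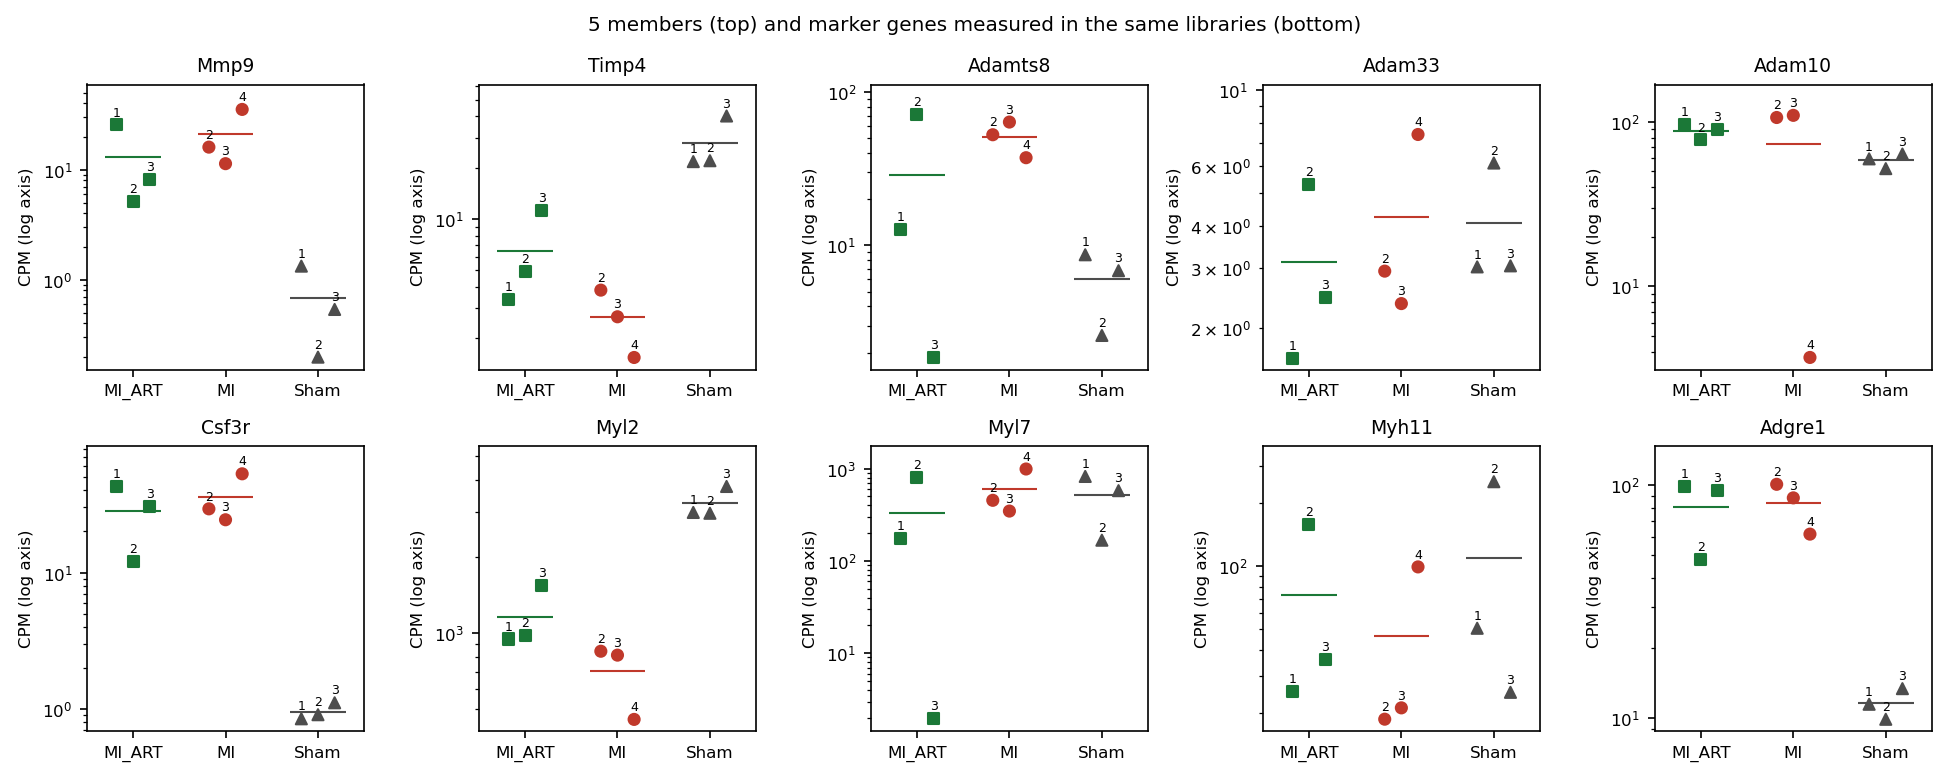
CPM on log axes of 5 members (top row) and, below each, 1 marker gene, chosen after values were seen, in the same libraries of MI_ART, MI and Sham (points with replicate number; lines are group means): Mmp9 with the neutrophil gene Csf3r, Timp4 with the ventricular gene Myl2, Adamts8 with the atrial gene Myl7, Adam33 with the smooth-muscle gene Myh11 and Adam10 with the macrophage gene Adgre1. MI_ART 3 has 1.86 CPM of Adamts8 and 1.96 CPM of Myl7, and MI 4 has 3.69 CPM of Adam10 with 61.8 CPM of Adgre1.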

How the data were processed

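RNA sequencing counts of 9 mouse libraries (3 each of MI_ART, MI and Sham, by the labels) were analysed. The deposited values are raw read counts per Ensembl gene, with no normalization; per the submitters' processing notes, HISAT (no version), featureCounts 1.5.0-p3, DESeq 1.8.3 and GRCm38 were used. The strand setting and the treatment of reads that map to several places are not stated in the labels, so counts of overlapping genes and near-identical copies are uncertain. The 9 per-sample files equal the count table at a tolerance of 0.

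All 55421 genes were filtered with filterByExpr on the 3 groups (19326 kept), scaled by TMM, and fitted in edgeR 4.0.16 (R 4.3.3) with 1 mean per group over all 9 libraries. Quasi-likelihood F tests passed where the p adjusted by Benjamini-Hochberg over all tested genes was under 0.05. Every adjusted p with no other tool, setting or left-out library named comes from this fit. SE is the log2 difference over the square root of F. The biological coefficient of variation was 0.388. A floor of 3 counts per library (0.0322 to 0.0592 CPM) stood for groups with no count. The fit was tested on simulated data. Alternatives were RLE, upper-quartile and total-count scaling, other filters, DESeq2 1.42.0, limma-voom (limma 3.58.1), a robust fit, fits of 6 libraries, a replicate block, and leaving out libraries.

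Coordinates are RefSeq spans on GRCm38.p6, matched by symbol for all 85 members. The files give no gene length, so family sums are in CPM where sums per kilobase had been planned. Protein and promoter sequences were not used here. Values of every library are given for the 4 TIMPs, for up to 6 called members per other family with the largest changes (group mean of 1 CPM or more), for the 4 with most reads per family, and for the 5 with the smallest p in MI_ART against MI; some further members are named with values and were chosen after these were seen. From each partner list the 4 genes with the smallest p in MI against Sham are named. Members, lists and tests were chosen with earlier results of these data known.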

Additional observations from a re-analysis of the deposited data

How the results depend on the processing

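Scaling by total counts moved the median of all tested genes to log2 0.88 in MI against Sham, 0.75 in MI_ART against Sham and -0.11 in MI_ART against MI, and the share of calls that were higher from 56.7% to 93.7% and from 63.5% to 98.5% in the comparisons with Sham. Of 59 members, 42 were then called higher and 1 lower in MI against Sham, where 49.3% and 3.33% of all genes were. In MI_ART against Sham, 38 of 59 were called higher and 1 lower, where 41.6% and 0.642% of all genes were. Signs turned under it in MI against Sham for Timp3 (0.74), Mmp15 (0.40), Adam1a (0.092), Adamts7 (0.13) and Adamts5 (0.45), and in MI_ART against Sham for Timp3 (0.24), Mmp15 (0.46), Adamtsl4 (0.15), Adamts7 (0.18), Adamts5 (0.66) and Pcsk6 (0.023). Under it, some members that missed the threshold in the full fit passed as higher in MI against Sham. They included Timp2 (adjusted p = 0.000336), Timp3 (0.00493), Mmp2 (0.00283), Mmp27 (0.00447), Adam17 (0.00053), Adamtsl1 (0.00943), Adamtsl3 (0.00384) and Adamtsl5 (0.0202). Limma-voom gave Adam10 -0.73 in MI against Sham, and leaving out 1 library gave -0.085 (without MI 3) to 0.89 (without MI 4), with -0.042 without MI 2. Adamtsl5 was -0.028 (without MI 4, with or without MI_ART 3) to 0.50 in MI against Sham and -0.071 (without Sham 3) to 0.40 in MI_ART against Sham. Timp2 in MI_ART against MI was -0.16 (without MI 3) to 0.047 (without MI 4), 0.046 with MI_ART 3 also left out and 0.051 with the replicate block. DESeq2 called 1 member higher in MI_ART against MI. In MI_ART against Sham, fits of the 6 libraries compared called 29 of 57 tested members higher, against 18.7% of all genes. Members lower were 2 of 57 in those fits (13.9% of all genes) and 2 of 59 in DESeq2 (10.4%). With at least 1 CPM required in 3 libraries they were 2 of 50 (11%). Leaving out 1 library at a time gave 20 to 26 members higher and 1 to 4 lower in MI against Sham, 16 to 29 higher and 0 to 2 lower in MI_ART against Sham, and none in MI_ART against MI. The causes were not tested. Scaling by RLE or upper-quartile factors changed no call among the named genes. Libraries with the same number correlated at 0.001 to 0.192 in their deviations from group means, not all above 0.1. The numbers were therefore not taken as pairs. With the replicate block, 26 of 59 members were called higher and 3 lower in MI against Sham, against 17.6% and 14.8% of all genes. In MI_ART against Sham it called 26 of 59 higher and 3 lower, against 16.8% and 13.8%. In MI_ART against MI it called 0. Several genes that missed the threshold in MI_ART against Sham passed both with the block and under total counts: Adam9 (0.0128 and 0.0025), Adam17 (0.00823 and 0.00102), Adamts1 (0.0191 and 0.00176), Adamts9 (0.00441 and 0.00418), Adamts10 (0.0247 and 0.00365) and Adamts15 (0.0361 and 0.00236). With the block, Timp3 (0.0472) and Adam10 (0.00709) passed as well, and Adamts8 (0.133) and Mmp16 (0.129) were lost in MI against Sham. In MI against Sham, Adam10 (0.00223) and Adam17 (0.00593) passed with it. MI 4 is the only library of its number, so the block fits it with a term of its own. It then enters the filter and the scaling but not the group differences or their spread. The block is therefore not separate from the fits without MI 4.

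With 3 libraries per group and a biological coefficient of variation of 0.388, small changes could be missed after adjustment. The smallest detectable change was not measured.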
